A study of Homo sapiens with 6 samples.

Results

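The regions described here are sites where RPB1, the largest subunit of RNA polymerase II, was strongly enriched in SHP-1 WT HepG2 cells and where no RPB1 region was called in SHP-1 KO cells. They were chosen by measured values: a −log10 q-value of at least 10 in the WT RPB1 list and no overlap, even of 1 bp, with any region of the SHP-1 KO RPB1 list. This gave 1092 regions, which are 6.04% of the 18078 strong WT RPB1 regions and belong to a WT list of 46045 regions. The other 16986 strong WT regions overlapped a KO region and are called shared. In the opposite direction, 189 of the 15483 strong KO RPB1 regions had no WT region. A site counted as absent in SHP-1 KO cells is one without a called region, which may still carry RPB1 below the caller's limit (the lowest −log10 q-value was 1.31 in either list).

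HepG2 is a cell line from a human liver tumor. SHP-1 KO cells were made by CRISPR/Cas9 with guides against PTPN6, the gene of the tyrosine phosphatase SHP-1, and SHP-1 WT cells are labelled as the CRISPR control. The cells were grown in low glucose medium with serum and received no treatment. Each line was a selected clone, so the genotype and the clone cannot be told apart. RPB1 and RPB1 phosphorylated on serine 2 of its tail repeats (pSer2) were measured by ChIP-seq with 1 library per antibody and line, and the 2 input libraries served the authors' peak calling. No comparison therefore has a replicate, no test was made, and the 95% Wilson intervals given here cover counting error only. Read depth is unknown from the region lists. Of 8 hepatocyte markers, 6 had an RPB1 promoter region in both lines (ALB, AFP, TTR, APOB, SERPINA1 and HNF4A), and APOA1 and FOXA2 had none under their own names. Of 8 markers of other cell types, PECAM1 and SYP had one in both lines.

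RNA polymerase II is recruited to promoters, starts transcription and often pauses shortly downstream. Serine 2 of the RPB1 tail is phosphorylated by kinases that act on release into elongation, and this mark accumulates through gene bodies towards their ends. A promoter region of total RPB1 can thus mark paused or initiating polymerase, while RPB1 with pSer2 marks elongating polymerase. Serine 2 phosphorylation was not used to choose the regions.

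A few sequences are shown as picked examples and do not stand for all WT-only regions. They come from the 4 sites with the highest fold enrichment, a distal cluster whose nearest assigned gene is FBRSL1 and the promoter of the metabolic gene ANGPTL4. Each line gives 120 bases of the hg38 forward strand inside the WT-only region, as close to its summit as annotated untranslated sequence allowed. Capitals mark a searched motif (TATA box TATAAA or GC box GGGCGG, on either strand) or, in FKBP11 and CABLES2, the summit base. In ANGPTL4 the summit lies downstream of the bases shown.
FKBP11 promoter, chr12:48925309-48925428: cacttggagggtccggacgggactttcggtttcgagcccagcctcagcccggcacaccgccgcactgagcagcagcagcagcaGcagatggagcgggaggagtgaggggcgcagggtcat
MEGF6 internal promoter, chr1:3531529-3531648: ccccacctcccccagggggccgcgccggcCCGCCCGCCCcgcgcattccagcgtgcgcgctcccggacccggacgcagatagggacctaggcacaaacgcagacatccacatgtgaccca
CABLES2 exon class, chr20:62412563-62412682: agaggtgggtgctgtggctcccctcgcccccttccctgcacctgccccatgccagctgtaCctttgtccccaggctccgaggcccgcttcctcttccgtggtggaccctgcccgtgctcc
C2CD4A promoter, chr15:62066857-62066976: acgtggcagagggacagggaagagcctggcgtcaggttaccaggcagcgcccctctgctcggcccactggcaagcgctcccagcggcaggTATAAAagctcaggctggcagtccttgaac
ANGPTL4 promoter, chr19:8364035-8364154: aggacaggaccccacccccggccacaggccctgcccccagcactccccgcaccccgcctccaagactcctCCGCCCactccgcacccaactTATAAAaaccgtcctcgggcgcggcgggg
FBRSL1 distal, chr12:132440192-132440311: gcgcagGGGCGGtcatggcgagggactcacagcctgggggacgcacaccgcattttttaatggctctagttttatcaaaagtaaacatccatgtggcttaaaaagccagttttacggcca
These stretches were 50.8% (FBRSL1) to 73.3% (MEGF6) G and C, and they held from 5 (CABLES2) to 14 (MEGF6) CpG dinucleotides.

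The WT-only regions lay near the lower end of the strong WT regions. These are the values that selected them and are given as a description. Their fold enrichment over input, which is the authors' value at the summit, ran from 4.44 to 32.04 with a median of 7.70, and their −log10 q-value had a median of 12.7. Shared regions had medians of 20.0 and 61.6. The WT-only regions were also shorter, with a median width of 518 bp against 1279 bp in shared regions. Among strong WT regions with a −log10 q-value from 10 to 15, 21.5% were WT only (732 of 3408), whereas at 50 or more 12 of 9447 were (0.127%). The members just inside the threshold, in MIR551A, CENPS-CORT, MMP17, IL17D and LINC01058, had a −log10 q-value of 10.0. Just outside, WT regions without a KO region at HYAL3, U2SURP, RER1, SMARCD2 and MCM3 had values from 9.93 to 9.98.

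Many WT-only regions were not isolated from RPB1 in SHP-1 KO cells. The nearest KO RPB1 region was under 1 kb away for 344 of the 1092 (31.5%), at 1 to 10 kb for 318 (29.1%), at 10 to 100 kb for 353 (32.3%) and at 100 kb or more for 77 (7.05%). The median distance was 4266 bp. Those closest to a KO region included parts of broader occupied domains, such as the NKD1 intronic region, which lay 8 bp from a KO region in a gene with 61 WT and 51 KO regions. At the other end, the promoter region of NR4A2 lay 1532784 bp from the nearest KO region, the greatest distance of all, that of DPYD 739714 bp and that of MYRIP 392434 bp.

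By the authors' annotation, 407 WT-only regions were at promoters (37.3%, 95% interval 34.5 to 40.2%), 414 in gene bodies (37.9%, 35.1 to 40.8%) and 271 were distal (24.8%, 22.3 to 27.5%). Within the gene bodies, introns held 290, among them 126 in the first intron, and exons held 70. A further 50 lay in a 3′ UTR and 4 in a 5′ UTR. The distal class held 244 intergenic regions and 27 just downstream of a gene. Shared regions were at promoters in 72.7%, in gene bodies in 18.2% and distal in 9.17%. The 189 KO-only regions resembled the WT-only ones in their promoter share of 37.6% (31.0 to 44.7%), and their distal share was lower, at 14.8% (10.5 to 20.6%). In the band of −log10 q-value from 10 to 15, 21.3% of promoter, 18.8% of gene body and 27.5% of distal strong regions were WT only.

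**Figure D1:**
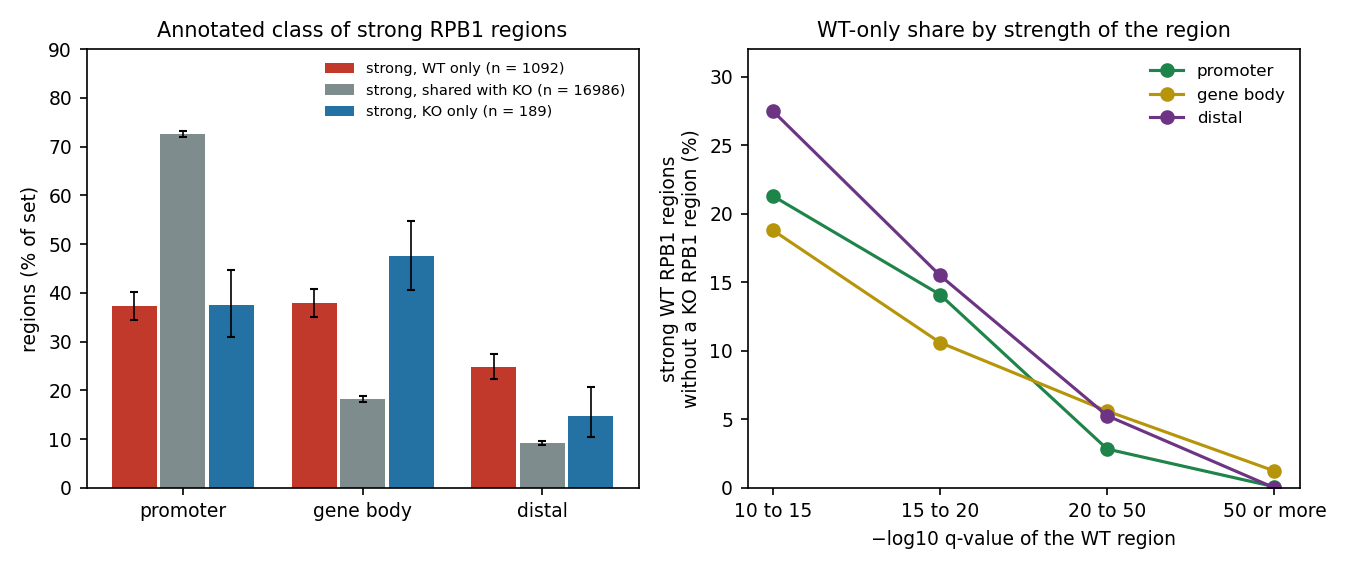
Left, the percentage of strong RPB1 regions annotated as promoter, gene body or distal in the WT-only (n = 1092), shared (n = 16986) and KO-only (n = 189) sets, with 95% Wilson intervals as error bars. Right, the percentage of strong WT regions without a KO RPB1 region in 4 bands of −log10 q-value, 1 line per class; all 3 lines are highest in the band from 10 to 15 and at or near 0 at 50 or more.

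Among the 25 WT-only regions with the highest fold enrichment, 15 were promoter regions and 12 had an assigned gene without any KO RPB1 region assigned to it. Of the 25, 14 overlapped a WT pSer2 region and 2 a KO pSer2 region. Of all strong WT regions, 70.5% were at promoters, 61.4% overlapped a WT and 55% a KO pSer2 region. The share of all strong WT regions whose gene had no KO region is not given. FKBP11, a peptidyl-prolyl isomerase of the endoplasmic reticulum, had the highest value, 32.04 at a −log10 q-value of 86.5, with 3 WT and 0 KO RPB1 regions assigned to the gene. Its summit also lay within CCDC65, a neighbouring gene that overlaps FKBP11. Among promoter regions FKBP11 was followed by that of MEGF6, described with its stretch, by C2CD4A at 25 and by ALDOC, the glycolytic aldolase C, at 23.6, and C2CD4A and ALDOC had 0 KO regions. The cell adhesion genes ICAM5 and CDH1, the gene of E-cadherin, had WT-only promoter regions of 22.9 and 15.9, and the KO list held 1 region, at a promoter, for ICAM5 and 0 for CDH1. The receptor tyrosine kinase gene MST1R had a value of 18.1, MYRIP 17.98, FXYD1, a regulator of the sodium pump, 17.8, and DPYD, which starts pyrimidine breakdown, 17.2. The FXYD1 summit lay in LGI4 by GENCODE. The promoter of the antisense RNA HLA-F-AS1 had 19.6. Each of MST1R, MYRIP and DPYD had 1 WT region and 0 KO regions. PSD4, KDM2B, AGXT and EPS8L1 also had strong WT-only promoter regions, of 19.5, 16.1, 15.7 and 15.6, but 3, 6, 4 and 2 KO regions remained assigned to these genes.

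Outside promoters, the region with the highest −log10 q-value of all 1092, 96.5 at a fold enrichment of 26.3, was assigned to CABLES2 and annotated as an exon. Its summit lay in RBBP8NL by GENCODE. The nearest assigned gene was likewise not the coding gene at the summit for 125 of the 682 WT-only regions whose summit lay in a coding gene. Regions assigned to MIR551A lay in MEGF6, and those assigned to MIR4274, with values up to 16.6, lay in SORCS2, where the KO RPB1 list held none under the MIR4274 assignment. The intronic regions of ZBTB7C and PTCSC2 had values of 20.0 and 19.8. Distal regions with the highest −log10 q-values were assigned to PIM3 (40.9), LGALS3 (39.4), LY86-AS1 (37.8), FBRSL1 (37.8) and LINC00929 (35.4).

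Protein-coding genes were the assigned genes of 913 WT-only regions (83.6%), lncRNA genes of 106 (9.71%) and microRNA genes of 39 (3.57%). In shared regions these shares were 86.8%, 9.08% and 1.85%. The WT-only regions were spread over 956 genes, of which 856 had 1, 81 had 2 and 19 had 3 or more. Of the 956 genes, 606 still had an assigned KO RPB1 region at a promoter and 246 had no KO RPB1 region assigned to them. Of 386 genes with a WT-only promoter region, 201 had another promoter region assigned in KO cells. No KO region was assigned to 150 of the 386, 123 of them coding genes. No such share over all genes with a strong WT region is given beside these counts. They follow in part from choosing regions without a KO region and are a description. KO regions per gene are counted throughout by the authors' gene assignment. A gene with none assigned can still hold KO RPB1 within its span, such as MACROD2 (1078 bp) and SCARB2 (886 bp).

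The 123 coding genes without an assigned KO region held 128 WT-only promoter regions. Their median distance from a KO RPB1 region was 51669 bp, 75 were the only WT RPB1 region of their gene, 12 overlapped a WT pSer2 region and 3 a KO one. Of all strong WT promoter regions, 59.8% and 54.0% did. After the genes already named, the highest fold enrichments were at the keratin genes KRT23 (14.5) and KRT15 (14.5), followed by RGS10, a regulator of G protein signaling (13.5), GDA, the guanine deaminase gene (13.01), ZDBF2 (12.7) and PRRG4 (12.5). The KRT15 region lay 1528 bp from a KO RPB1 region and overlapped pSer2 regions of both lines, with fold enrichments of 10.95 in WT and 6.62 in KO cells. Those at KRT23, RGS10 and GDA lay 113003, 28993 and 203009 bp away and overlapped none. The tight junction gene CLDN3 and IL15RA, a receptor chain for interleukin 15, each had 1 WT region, of 11.01, and no pSer2 region there.

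Strong WT-only regions were assigned to MIR551A in 10 cases, more than to any other gene. The MIR551A hairpin is 1 of 6 microRNA hairpins that overlapped a WT-only region, with those of MIR5093, MIR1250, MIR3912, MIR4638 and MIR3621. Their 9 mature forms in RefSeq (GRCh38.p14) have 9 different seeds. The mature forms of the microRNAs with 3 or more assigned regions and a hairpin at one are shown, with the seed (bases 2 to 8) in capitals.
hsa-miR-551a: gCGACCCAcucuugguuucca
hsa-miR-5093: aGGAAAUGaggcuggcuaggagc
The region that overlapped part of the MIR551A hairpin, but not the mature form shown, had a fold enrichment of 7.05. It overlapped a WT pSer2 region and no KO one. The region over MIR5093 had 10.6 and overlapped neither. Both hairpins lie inside longer genes, so polymerase on the host gene cannot be told apart from polymerase on a microRNA transcript.

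The WT-only regions were found on chromosomes 1 to 22 and X. Chromosome 1 held 158 of them, 8.33% of its 1897 strong WT regions (7.17 to 9.66%), and chromosome 7 had the lowest share, 3.86% of 855. Across 243 windows of 10 Mb with at least 20 strong WT regions, the median share was 4.76%. In the first 10 Mb of chromosome 1, 61 of 285 strong regions were WT only (21.4%, 17.0 to 26.5%), which was the highest window, followed by 18.8% (9 of 48) in the window of chromosome 13 from 110 Mb. The megabase from 3 to 4 Mb had the highest share, 24 of 50 (48.0%), followed by 10 of 35 from 9 to 10 Mb (28.6%), 8 of 39 from 2 to 3 Mb (20.5%) and 5 of 29 from 6 to 7 Mb (17.2%). Without the MEGF6 stretch, described with the runs of regions, the first 10 Mb had 46 of 270 (17.0%, 13 to 22%). From 3 to 4 Mb, the lists held 152 WT and 63 KO RPB1 regions and 129 WT and 52 KO pSer2 regions.

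**Figure D2:**
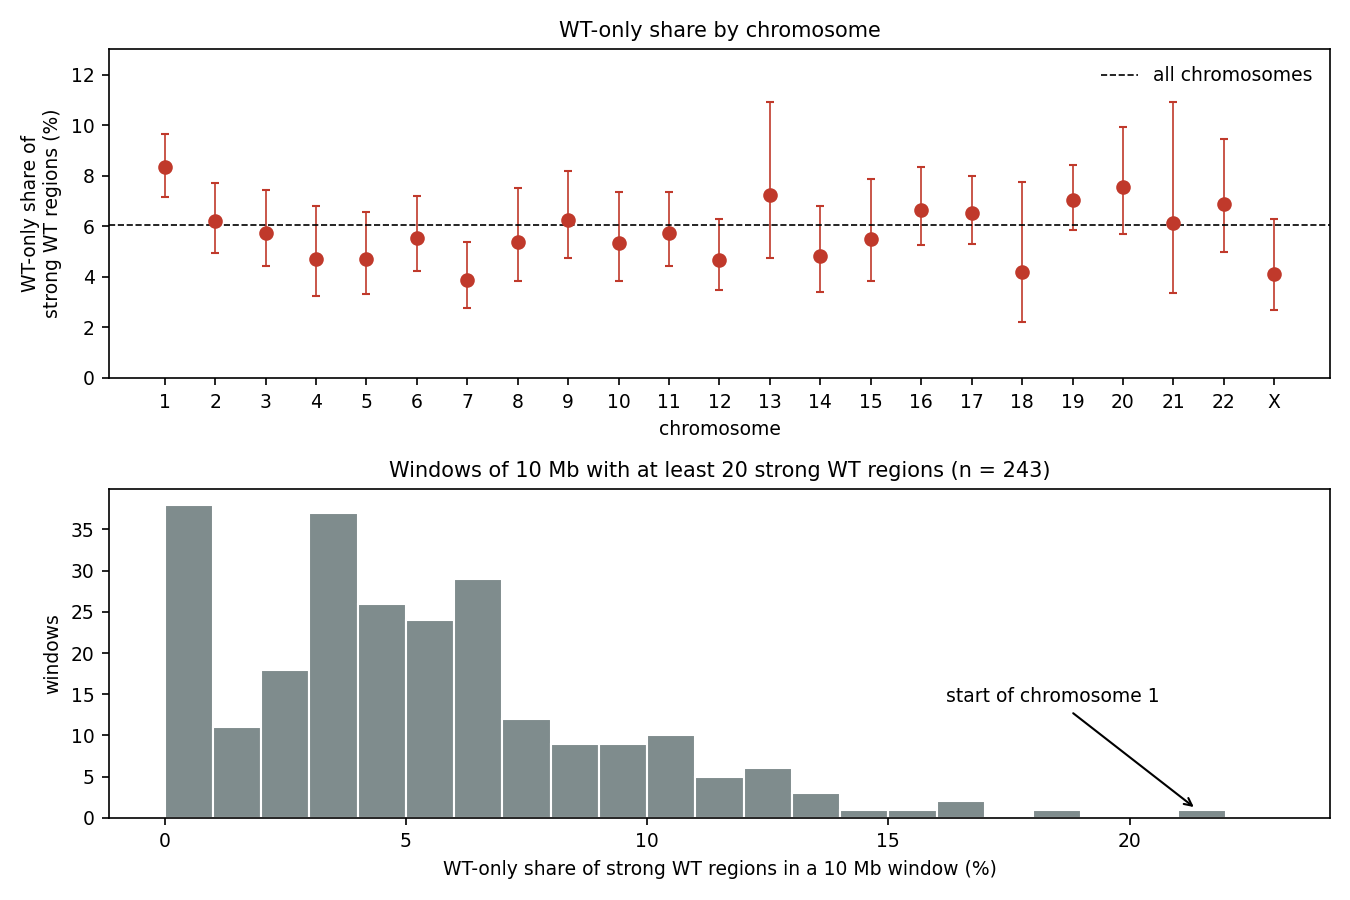
Top, the percentage of strong WT RPB1 regions that were WT only on each chromosome with 95% Wilson intervals, and a dashed line at the value for all chromosomes, 6.04%. Bottom, the number of 10 Mb windows (243 in all) by their WT-only percentage; the first window of chromosome 1, at 21.4%, lies apart from the median of 4.76%.

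In 15 stretches, 3 or more WT-only regions followed each other without a KO RPB1 region between them, and together these held 64 of the 1092 (5.86%). The longest in members was at MEGF6, which encodes a protein with EGF-like domains and lies on the reverse strand of chromosome 1 from 3487951 to 3611508 (GENCODE release 44). Between the flanking KO RPB1 regions, over 140 kb from 3484012 to 3624202, the WT list held 44 RPB1 regions, 15 of them strong, and the KO list held 0. The strong ones ran from 3522810 to 3576322, with fold enrichments from 7.05 to 28.5, and the highest was the 16435 bp region from 3523991 to 3540425 annotated as a promoter inside the gene. The pSer2 lists showed the same contrast, with 37 WT regions covering 76365 bp of the stretch and 0 KO regions. Whether this stretch of the genome was intact in the KO clone was not tested, since the input libraries were not analysed here. A single WT pSer2 region of 36825 bp, from 3520670 to 3557494, had a fold enrichment of 33.5. On both sides, at TPRG1L and ARHGEF16, the KO lists held regions of both kinds.

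**Figure D3:**
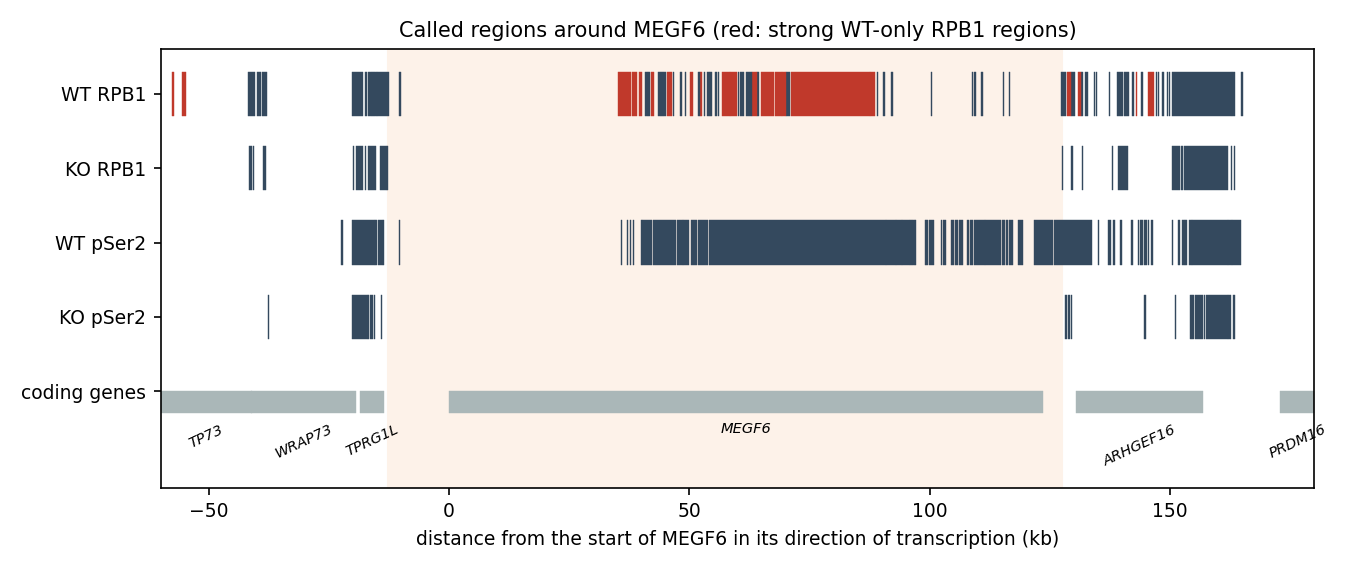
Called regions in the 4 lists around MEGF6, plotted by distance in kb from the gene start in its direction of transcription, with coding genes at the bottom; red bars are the strong WT-only RPB1 regions and the shaded span lies between the flanking KO RPB1 regions. Within the shaded span both WT rows hold many regions and both KO rows are empty, while KO regions are present on either side.

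ARHGEF16, next to MEGF6, had 4 WT-only regions, with fold enrichments from 7.51 to 9.44, and 9 KO RPB1 regions beside them. FBRSL1 on chromosome 12 was the nearest assigned gene of 5 WT-only regions, all intergenic, with fold enrichments from 10.5 to 17.5. They lay in a stretch of 336 kb without a KO RPB1 region, over which WT pSer2 regions covered 6582 bp and a KO pSer2 region reached 3 bp. NOL4L on chromosome 20 and its divergent transcript had 5 in 98.1 kb, with values from 5.80 to 11.3 and no pSer2 region in either line. At CAPN12, a calpain protease gene, 4 WT-only regions lay among 18 WT RPB1 regions, with 9190 bp covered by pSer2 in WT and 3697 bp in KO cells. The APOC1P1 to APOC2 interval, which holds apolipoprotein genes, and the interval of SYT8 and TNNI2 had 4 each. CPT1A, the enzyme that commits fatty acids to mitochondrial import, had 3 WT-only promoter regions of 14.5, 11.4 and 8.38 within 5.21 kb, and 1 KO region was assigned to the gene. NOS3, ICAM1 and GSE1 had 4 each in all, and the KO list held 1, 8 and 16 regions assigned to them. The 3 WT-only regions of SULT2A1, a hepatic sulfotransferase for steroids and bile acids, had fold enrichments of 16.02, 8.29 and 7.81 and lay from 1414 to 3916 bp from a KO region. SYT8 (8.01 to 9.51) and PNCK, a calmodulin-dependent kinase (7.51 to 8.51), had 3 each and no KO region assigned to them. The SYT8 regions lay 65182 bp or more from a KO RPB1 region, whereas the PNCK promoter regions lay 446 and 1927 bp away. MCF2L (7.46 to 10.3), KAZN (6.55 to 7.52) and PDZD8 (4.55 to 8.17) had 3 each beside KO regions of the same gene.

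Fewer WT-only than shared regions overlapped a pSer2 region in WT cells. Of the 1092, 378 did (34.6%, 31.9 to 37.5%), against 63.1% of shared regions and 61.4% of all strong WT regions. In SHP-1 KO cells, 180 overlapped a pSer2 region (16.5%, 14.4 to 18.8%), against 57.5% of shared and 55% of all strong regions. A WT pSer2 region without a KO one was found at 205 WT-only regions (18.8%, 16.6 to 21.2%), compared with 10.6% of shared and 11.1% of all strong regions. The reverse pattern, KO without WT, was found at 7 (0.641%), and 707 (64.7%) overlapped neither. In shared regions the reverse pattern was 4.94%. An overlap of 1 bp sufficed and the shares were not adjusted for width, whose median was 518 bp in WT-only and 1279 bp in shared regions.

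In the band of −log10 q-value from 10 to 15 the contrast was similar: 36.2% of WT-only and 68.3% of shared regions overlapped a WT pSer2 region, and 20.6% and 63.3% a KO pSer2 region. A WT pSer2 region without a KO one was present at 16.5% (14 to 19.4%) and 7.25% (6.33 to 8.29%). By class, the WT without KO pattern was found at 25.6% of gene body WT-only regions (21.6 to 30.0%), 18.4% of promoter ones (15 to 22.5%) and 8.86% of distal ones (6.02 to 12.8%), against 8.91%, 11% and 10.3% of shared regions of these classes. The distal intervals overlap.

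The WT and the KO pSer2 share were both lower farther from a KO RPB1 region. Under 1 kb from a KO RPB1 region, 55.2% of WT-only regions overlapped WT pSer2 and 35.5% overlapped KO pSer2. At 10 kb or more these were 17.2% (13.9 to 21.1%) and 3.72% (2.30 to 5.96%). Where a WT pSer2 region stood without a KO one, its fold enrichment had a median of 4.06 and 27.8% reached a −log10 q-value of 10, whereas with a KO pSer2 region the WT one had a median of 6.35 and 71.1% reached it. Shared regions had the same order, with 3.69 and 16.2% without a KO pSer2 region and 5.93 and 71.9% with one.

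**Figure D4:**
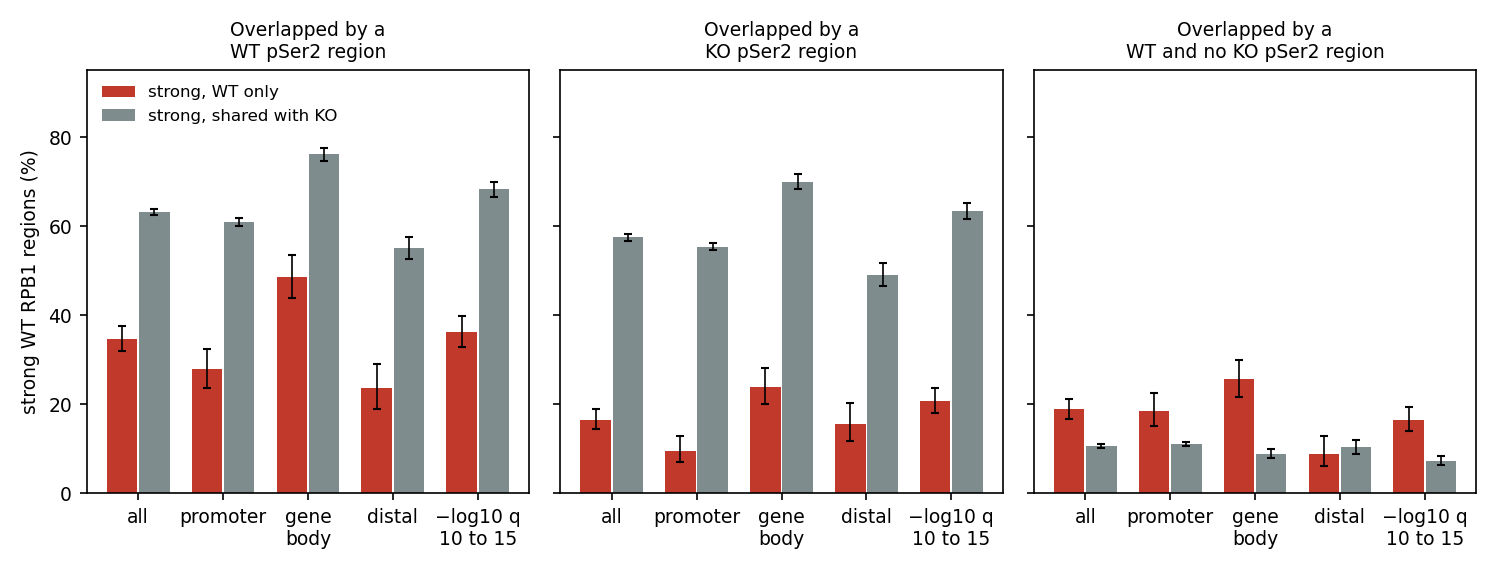
Percentage of strong WT RPB1 regions overlapped by a WT pSer2 region, a KO pSer2 region, or a WT and no KO pSer2 region, for WT-only and shared regions, over all regions, by class and in the weakest band; error bars are 95% Wilson intervals. WT-only bars are lower in the first 2 panels, and in the last panel they are higher except in the distal class.

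The WT-only regions with the strongest WT pSer2 regions and no KO one were mostly those of MEGF6 and MIR551A, which share the 36825 bp pSer2 region. APEH, an acylpeptide hydrolase gene, and ALOX12B, a lipoxygenase gene, followed. With a KO pSer2 region also present, the WT-only regions at NKD1, HMGCS1, DGAT1 and MDH2 came near the top. At NKD1, an inhibitor of Wnt signaling, the KO pSer2 region had a fold enrichment of 24.9. At HMGCS1, of cholesterol synthesis, the WT pSer2 region had 19.7 and the KO one 15.95, and at DGAT1, of triglyceride synthesis, these were 19.6 and 17.9.

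pSer2 was also read over whole genes, because elongation leaves its mark away from the promoter. There were 168 coding genes (GENCODE release 44) whose strong WT promoter regions were all WT only. Of these, 98 had no pSer2 region in either line (58.3%, 50.8 to 65.5%). In WT cells alone 32 had pSer2 (19.0%, 13.8 to 25.7%), and in KO cells alone 0 had it (upper limit 2.24%). In the 9109 coding genes with shared promoter regions only, 15.4% had no pSer2 region and 2.40% had it in KO alone, close to that limit. Over the 9452 coding genes with a strong promoter region, 9.24% had it in WT alone. Of the 70 genes with any pSer2, 64 had more bases covered in WT than in KO cells (91.4%, 82.5 to 96.0%), against 72.7% of the 7932 such genes in all. Summed over the 168 genes, the covered bases in KO were 0.379 of those in WT cells, compared with 0.829 in genes with shared promoter regions only and 0.808 over the genome. Without MEGF6 and FREM1, which had the largest differences, the ratio over the other 166 genes was 0.526.

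Single genes differed widely. WT pSer2 regions covered 58.5% of MEGF6 and KO regions 0%. FREM1, which encodes an extracellular matrix protein, was covered over 55.9% in WT and 20.1% in KO cells, although its WT-only promoter region had a fold enrichment of 6.60 only. DKK1, a secreted Wnt inhibitor, had 97.0% and 13.9%. FKBP11 had 42.6% and 3.37%, and HSD17B2, a steroid dehydrogenase gene, 6.71% and 0%. The glucose transporter gene SLC2A2 (GLUT2), with a promoter region of 7.80 and 5 WT and 0 KO RPB1 regions, had 8.69% and 0%. LOX, which crosslinks collagen, had 12.6% and 0%. In contrast, RNASE4 kept 82.8% in KO against 88.1% in WT, and FXR2 had 19.6% in KO against 14.01% in WT cells.

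**Figure D5:**
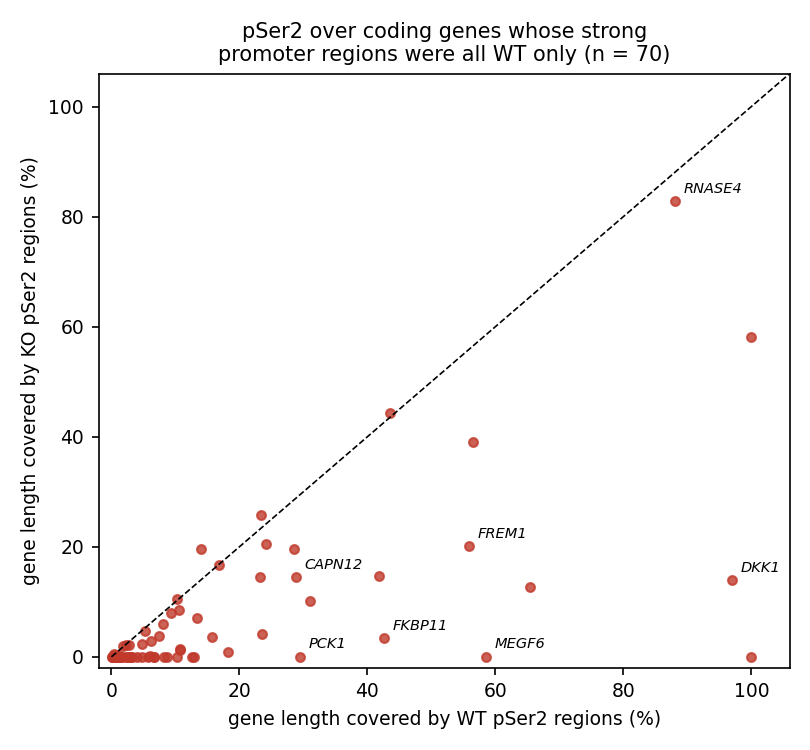
Percentage of gene length covered by pSer2 regions in WT (x axis) and KO cells (y axis) for the 70 coding genes with pSer2 in either line whose strong WT promoter regions were all WT only; each point is a gene and the dashed line marks equal coverage. Most points (64) lie below the line, MEGF6 and PCK1 at 0% in KO, while RNASE4 lies close to it.

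Genes of liver metabolism were read from lists. Of all genes with a strong WT region, 8.02% (955 of 11901) had a WT-only one; the lists are small, and their shares are given as counts. In gluconeogenesis, 3 of 16 genes did: PCK1, the cytosolic phosphoenolpyruvate carboxykinase that commits carbon to glucose, FBP1, fructose bisphosphatase, and MDH2, mitochondrial malate dehydrogenase. The PCK1 region, from 57560956 to 57561380 on chromosome 20, had a fold enrichment of 6.96 at a −log10 q-value of 24.1 and was the 1 strong region among 6 WT RPB1 regions of the gene, where the KO list held 0. WT pSer2 regions covered 29.5% of PCK1 and KO regions 0%. The FBP1 region was distal, at 9.71, and the only one of the gene in either line. MDH2 had 13 WT and 11 KO RPB1 regions, with pSer2 at the WT-only exon in both.

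In lipid synthesis and transport, 7 of 30 genes had a WT-only region. Beside CPT1A, HMGCS1 and DGAT1 they included ANGPTL4, an inhibitor of lipoprotein lipase (promoter, 10.0, no KO region), CPT2 (7.10) and LPIN1 (6.35). Among plasma proteins made by liver, 9 of 47 genes had a WT-only region. PLG, which encodes plasminogen, had 1 WT region, at a promoter with a fold enrichment of 12.5, and 0 KO regions. Others were in genes to which the KO list assigned more RPB1 regions than the WT list, a count that does not measure the amount of RPB1: C3 had 26 WT and 34 KO regions, TF, the transferrin gene, 19 and 26, SERPINF1 16 and 21, and FGA, of fibrinogen, 2 and 6. The remaining 4 were APOC2, ITIH3, SERPINA5 and F11, with fold enrichments of 8.77, 8.76, 8.51 and 7.88.

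Of 25 genes of JAK and STAT signaling and STAT5 targets, 4 had a WT-only region. IL6R, the interleukin 6 receptor, had 2, of 11.8 in an intron and 6.89 distal, with 7 WT and 1 KO regions in all. PTPN1 (9.14), PIM1 (7.38) and JAK3 (6.64) had 1 each and kept 4, 5 and 1 KO regions. STAT5A and STAT5B had none, and neither did PTPN6 or POLR2A, the genes of SHP-1 and RPB1, each with KO RPB1 regions. In insulin and IGF signaling, 3 of 23 genes did: PDPK1 (8.72), MTOR (7.86) and TRIB3 (6.24). Liver transcription factors and nuclear receptors gave 3 of 29, namely RXRA (9.61), NR2F6 (8.00) and NR0B2 (5.44). Immediate early genes gave 4 of 24. KLF4 and NR4A2 had their only WT region at the promoter, of 11.01 and 9.74, and no KO region, and NR4A1 and DUSP1 had distal ones in genes with 5 and 6 KO regions. RNA polymerase II subunits and pause release factors gave 0 of 25.

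By name families, 21 of 209 solute carrier genes (10.0%), 42 of 255 LINC genes (16.5%), 28 of 270 microRNA genes (10.4%), 24 of 425 antisense genes (5.65%), 3 of 21 cytochrome P450 genes and 9 of 381 ZNF zinc finger genes (2.36%) with a strong WT region had a WT-only one. Uncharacterized LOC genes gave 19 of 334, TMEM genes 12 of 155, collagens 2 of 13, small nucleolar RNAs 2 of 55 and small nuclear RNAs 1 of 15. These families follow gene names alone, so the ZNF family includes ZNF436-AS1 and the microRNA family MIR7-3HG and MIR762HG. The solute carriers with the highest values were SLC27A5, a bile acid ligase of liver (11.01), SLC6A8, the creatine transporter (10.0), and SLC19A3, a thiamine transporter (9.49). SLC19A3 had its promoter region as the only region in either line. CYP7B1, an oxysterol hydroxylase of bile acid synthesis, also had a single WT promoter region (9.72) and no KO region.

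The base composition of the 300 bases around the summit differed between WT-only and shared promoter regions. The median GC content was 62.7% in WT-only and 68.7% in shared promoters, and the observed over expected CpG ratio was 0.482 and 0.835. In the band of −log10 q-value from 10 to 15, however, the order was the other way round, with 61.7% and 58.3% GC and CpG ratios of 0.437 and 0.370. From 15 to 20 the WT-only promoters were also higher, at 64.7% and 62.0% GC and CpG ratios of 0.600 and 0.528. At 20 or more, the GC content was 63.7% in WT-only and 69.3% in shared promoters. In gene bodies the medians were close, at 56.3% and 55.3% GC. The GC box GGGCGG was found in 47.7% of WT-only promoter windows (42.9 to 52.5%), 69.5% of shared ones and 68.8% of all strong promoter windows. In WT-only and shared promoter windows it was in 41.6% and 33.1% in the band from 10 to 15 and 55.9% and 46.2% in that from 15 to 20. At 20 or more the order was the other way round, with 58.0% (46.2 to 68.9%) and 73.8%.

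Exact motif matches on either strand were counted in the same windows as a description. TATAAA was in 6.96% of WT-only, 4.82% of shared and 4.95% of all strong windows. By class, it was in 6.39% of WT-only and 3.42% of shared promoter windows, 7.0% and 8.75% of gene body windows and 7.75% and 8.09% of distal windows. The order thus held at promoters and turned round elsewhere, where the intervals overlap. In promoter windows of all WT regions it was in 4.99%, inside the WT-only promoter interval of 4.4 to 9.2%. TTCNNNGAA, the core of STAT sites, was in 4.58%, 4.69% and 4.69%. TGACGTCA, the cAMP response element, was in 0.733% (8 windows), 1.53% and 1.48%, and in 0.706% of the windows of all 46045 WT regions. In promoter windows it was in 0.491% of WT-only (2 windows, 0.135 to 1.77%) and 1.99% of shared ones (1.76 to 2.25%). In gene body windows it was in 0.242% and 0.227%. In distal windows it was in 1.85% of WT-only (5 windows, 0.791 to 4.25%) and 0.450% of shared ones (0.218 to 0.925%), where the intervals overlap. TATAAA and TGACGTCA were not counted by band of −log10 q-value. TTGCGCAAT, a C/EBP site, was in 0 of 1092 windows (upper limit 0.351%) and 2 of 16986. CAAAGTCCA, a strong site of the liver factor HNF4A, was in 22 WT-only windows (2.01%, 1.33 to 3.03%), against 0.618% of shared (0.511 to 0.748%) and 0.703% of all strong windows. By class the WT-only and shared shares were 1.97% and 0.413% at promoters, 1.69% and 1.30% in gene bodies and 2.58% and 0.899% in distal windows. In the band from 10 to 15 the shares were 1.64% (0.940 to 2.84%) and 0.934% (0.634 to 1.38%), where the intervals overlap. Within that band they were 3.57% and 0.580% in distal windows, but 1.03% and 1.35% in gene body windows. From 15 to 20 they were 2.90% (1.34 to 6.18%) and 1.23% (0.770 to 1.96%), which also overlap. At 20 or more they were 2.61% (4 windows, 1.02 to 6.53%) and 0.487% (0.381 to 0.623%), which do not. Examples at promoters and gene bodies are shown with 16 bases on each side and the match in capitals.
SMPDL3A intron, chr6:122792037-122792077, reverse strand: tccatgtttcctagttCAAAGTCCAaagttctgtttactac
MVP promoter, chr16:29829545-29829585, forward strand: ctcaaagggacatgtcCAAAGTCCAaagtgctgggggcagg
CAPN12 intron, chr19:38759717-38759757, forward strand: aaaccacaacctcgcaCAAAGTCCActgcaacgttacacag
SLC1A7 promoter, chr1:53089770-53089810, forward strand: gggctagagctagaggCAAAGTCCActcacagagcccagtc
TREH promoter, chr11:118679699-118679739, forward strand: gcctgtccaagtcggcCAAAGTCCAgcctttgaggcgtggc
These regions had fold enrichments of 12.1, 9.03, 8.62, 6.89 and 6.60, and those at SMPDL3A and CAPN12 overlapped a WT pSer2 region and no KO one. A letter match does not show that the factor binds there.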

How the data were processed

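ChIP-seq of RPB1 and of pSer2 was done once per HepG2 line, SHP-1 WT or KO, and groups came from the sample labels. The authors ran the MUGQIC pipeline (trimming by Trimmomatic, BWA alignment to hg38, narrow peaks from MACS2 for each library against its input); versions are not given in the sources used here. The deposited lists hold, per region, the fold enrichment (a ratio to input), −log10 p-values and q-values, a score derived from the q-value, the summit offset and the authors' annotation. A deposited csaw table of WT against KO RPB1 regions, with p-values and window counts up and down, holds the authors' own comparison and was not used. The input libraries were not analysed here.

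Overlaps need 1 bp. The functions for overlap, coverage and distance were tested on simulated data. All 46045 WT RPB1 regions lay within hg38 chromosome lengths. Gene spans came from GENCODE release 44, gene types from RefSeq. Shares have 95% Wilson intervals. The members and lists were chosen with earlier results of these data known. Named genes are the 25 highest in fold enrichment, the 5 highest −log10 q-values per class, 5 regions on each side of the threshold, genes with 3 or more regions, the 10 with the strongest WT pSer2 with or without KO pSer2, list genes, PCK1, PTPN6, STAT5A, STAT5B and POLR2A; genes named for gene-wide pSer2, for promoters without a KO region, for motif matches or beside a stretch were picked with their values known. Alternatives changed the thresholds, overlaps, chromosomes and classes. Software: SciPy 1.17.1, NumPy 2.4.6, pandas 2.3.3, under Python 3.11.15.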

Additional observations from a re-analysis of the deposited data

How the results depend on the processing

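Of 65 alternative values of 7 results, 41 stayed within 1.5 times the count or within the 95% interval of the share. With −log10 q-values of at least 5 there were 6151 WT-only regions, and with at least 20 there were 153. The promoter shares were then 29.5% and 45.1%, the distal shares 21.9% and 17.6% and the KO pSer2 shares 29.2% and 4.58%. At 5, the gene body share was 48.6% and the WT pSer2 share 45.7%, and at 20 the share with WT and no KO pSer2 was 29.4%. When a KO RPB1 region had to cover at least 50% of the WT region, 2464 regions qualified, 41.8% at promoters, 20.8% distal, 45.9% with WT pSer2 and 29.1% with KO pSer2. With no KO RPB1 region within 1 kb, the pSer2 shares were 25.1% in WT and 7.75% in KO. When pSer2 had to cover at least 50% of a region, 26.3%, 11.2% and 15.7% had WT, KO, and WT without KO pSer2. With pSer2 regions of −log10 q-value of at least 5 only, the first 2 were 26.4% and 11.4%. Downstream regions counted with the gene body left 22.3% distal. In every setting the WT pSer2 share was above the KO share. This order is not particular to WT-only regions: it was 63.1% and 57.5% in shared and 61.4% and 55.0% in all strong WT regions. The WT pSer2 list held 102674 regions and the KO list 81012. The cause of the movements between settings was not tested beyond the definitions themselves.

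Without the MEGF6 stretch, an alternative chosen after seeing the data, the first 10 Mb of chromosome 1 had 46 WT-only of 270 strong regions (17.0%) and the share with WT and no KO pSer2 was 17.6%. Without MEGF6 and FREM1, also chosen after seeing the data, the KO over WT ratio of pSer2 bases over genes with only WT-only promoter regions was 0.526. No paired analysis was possible because each antibody and line had 1 library. The number of reads behind each region is unknown, so a region called in 1 line only may lie just under the caller's threshold in the other.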
